A study of Oryza sativa with 36 samples.

Results

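The wound response of the rice variety TN1 (Taichung Native 1), which is susceptible to the brown planthopper (BPH), was read 6 h after needle puncturing, in 6 of the 36 arrays of the study. These are the 3 arrays of TN1 seedlings labelled as needle puncturing at 6 h (T6N) and the 3 arrays of TN1 seedlings labelled as natural growth at 6 h (T6C). They were chosen by variety, treatment and time alone, and the response was described across all 57194 probe sets of the Affymetrix Rice Genome Array. The study set TN1 beside the variety RH (Rathu Heenati), which resists that insect. Plants were left alone, pricked or infested and were sampled at 6 and 24 h, which makes 12 groups of 3 arrays. Needle puncturing stood beside infestation as simple mechanical damage without an insect. In T6N, 2-week-old seedlings of TN1 had been pricked 15 times each with a needle at the base and left to grow for 6 h, whereas the T6C seedlings of the same age were left untreated. Each array measured the shoots of a separate pot of 10 seedlings, so that the 3 arrays of a group are biological replicates and the p-values measure the spread between pots. The groups set beside them were the same treatments of RH at 6 h (R6N and R6C), the same treatments of TN1 at 24 h (T24N and T24C), and TN1 seedlings under BPH infestation for 6 h (T6P). TN1 and RH are each a single variety, so a difference between them is not a property of resistant or susceptible rice in general.

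In plants, wounding sets off the synthesis of jasmonates, which release transcription factors from the JAZ repressors, and the JAZ genes are themselves among the early targets of that signal. Downstream genes typically encode protease inhibitors, which block digestive enzymes of chewing insects, chitinases and other pathogenesis-related proteins, and peroxidases, which cross-link cell wall polymers at the damaged site.

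The deposited values are intensities on a linear scale that the authors had already normalized across arrays, with array medians of 36.3 to 36.8 in T6N and 36.2 to 37.7 in T6C, inside the range of 35.8 to 39.8 over all 36 arrays. Arrays correlated with the others of their own group at 0.995 or more in T6N and 0.996 or more in T6C. The deposit holds no detection calls, and intensities below these medians may be background, so a fold change read against such a value may be a lower bound. The shoot label was checked with genes of photosynthesis, whose summed intensity was 46999 to 47761 in T6N and 47049 to 47908 in T6C. Both root markers measured, Lsi1 and Lsi2, summed to 174 to 193 in T6N and 149 to 164 in T6C. All 3 T6N sums were above the T6C sums, neither gene passed the test, and the part of root RNA in the results was not tested.

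At 6 h after puncturing, 239 probe sets differed between T6N and T6C, and the response was almost entirely upward. A probe set was taken as differential at an adjusted p under 0.05 (limma, Benjamini-Hochberg over all probe sets) and a fold change of at least 2, and only such probe sets are said below to have passed, risen or fallen. By this rule 220 probe sets were higher, 0.385% of those tested, and 19 were lower, 0.0332%. The largest changes were rises, since 27 exceeded 5-fold and 7 exceeded 10-fold, whereas none of the falls reached 5-fold. With only 19 falls, this does not show that falls were the shallower changes. Most rises were moderate, with 141 of the 220 below 3-fold and a median log2 fold change of 1.40, and the falls had a median of -1.45. Over all probe sets the median was -0.01, and 97.55% changed by less than 0.5 on the log2 scale. With no minimum fold change, 993 probe sets passed the adjusted p, 633 of them higher and 360 lower, so the smaller changes were less one-sided than the larger ones. In these bulk samples a change in the number of cells of a type and a change in the RNA per cell cannot be told apart. All 239 had their 3 T6N arrays beyond their 3 T6C arrays, which also held for 20.64% of all probe sets. For 74 of the 220 higher probe sets the mean of T6C lay under the lowest array median, and these folds may be lower bounds. Just outside the fold threshold lay the tonoplast aquaporin TIP1-2 with a log2 fold change of 0.999, and just inside it the gene LOC9266317 with 1.00.

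**Figure D1:**
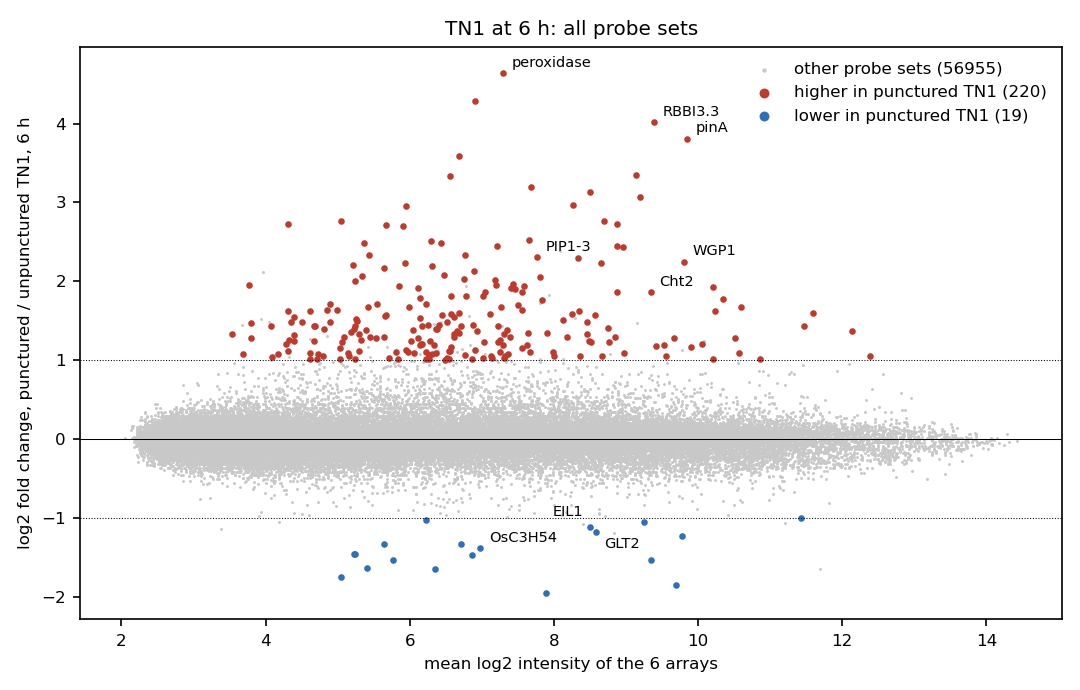
Log2 fold change of punctured over unpunctured TN1 at 6 h (vertical axis) against the mean log2 intensity of the 6 arrays (horizontal axis), with 1 point per probe set. The 220 higher probe sets spread up to a log2 fold change of 4.64, and the 19 lower ones do not pass -1.95. Dotted lines mark a 2-fold change.

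The 3 punctured pots did not respond to the same degree. Over the 220 higher probe sets, the median log2 rise above the T6C mean was 1.82 in T6N replicate 1, 1.29 in replicate 2 and 1.23 in replicate 3. Replicate 1 was the highest of the 3 pots for 179 of the 220, and replicate 3 was the lowest for 134. Without T6N replicate 1, 150 probe sets were higher and 19 lower, and of the 53 probe sets followed one by one below 14 no longer passed. They were those of PBZ1, SWEET15, JAZ13, OPR5, Cht6, PT8, ARD1, AMT1-1, CYP701A8, IAA20, EXPB6, GLT2 and LOC4348206, and 1 probe set of SWEET2B. The 3 pots were nearly equal in the probe sets that fell, with medians of -1.36, -1.43 and -1.33. The cause was not tested.

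Protease inhibitors held several of the steepest rises. Of the probe sets on the array, 3195 could be tied to a named gene, and among these RBBI3.3, a trypsin inhibitor of the Bowman-Birk type, and pinA were second only to a peroxidase gene. RBBI3.3 read 4012, 3068 and 1612 in T6N, against 141, 189 and 173 in T6C, a log2 fold change of 4.02 ± 0.37 (SE, adjusted p = 2.21e-08). Its lowest punctured pot was far above its highest unpunctured one. pinA, which the study's annotation places among inhibitors of serine proteases, read 4752, 3905 and 2217 in T6N and 254, 246 and 237 in T6C, and its log2 fold change was 3.81 ± 0.30 (adjusted p = 8.67e-10). In both genes T6N replicate 1 was the highest pot and replicate 3 the lowest, while the T6C pots lay close together. The list of protease inhibitors held 10 named genes, of which these 2 rose and 8 did not pass the test. Of all 2459 named genes, with 1 probe set each, 1.42% were higher. The list median was 0.094, against 0.049 over these named genes and 0.026 over all 17905 genes with 1 probe set each. The other 8 genes of the list were cystatins, which inhibit cysteine proteases. The most intense of these, OC-III, had a log2 fold change of 0.10, and cystatin and OC-XII had 0.083 and 0.069.

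The study's own annotation terms, which it assigned to probe sets it found differential on these samples and which are therefore no independent evidence, placed 10 of the 220 higher probe sets under inhibition of serine endopeptidases. Their log2 fold changes ran between 1.35 and 4.28 with a median of 2.82. The steepest was a probe set of LOC4340892, whose values were 541, 455 and 592 in T6N and 20.7, 34.1 and 27.9 in T6C (4.28 ± 0.57, adjusted p = 1.77e-05). The T6C values lie under the array medians, so its 19.5-fold rise may be a lower bound, and a second probe set of the gene, Os.12713.1.S1_at, had -0.12. The probe set Os.48206.1.S1_at, tied to no gene, read 308, 298 and 290.4 in T6N, against 31.9, 28.2 and 29.3 in T6C, with a log2 fold change of 3.33. Its punctured pots differed little among themselves. Os.9836.1.S1_at, under no such term, read 736, 267 and 231 in T6N and 18.6, 38.4 and 36.5 in T6C, the fifth steepest rise at 3.59. LOC4325998, chosen like the other unnamed loci below after its values were seen, read 1072, 1105 and 1039 in T6N and 126, 128 and 114 in T6C and rose by 3.13 on the log2 scale. In the RefSeq annotation of the assembly ASM3414082v1, LOC4325998, LOC4326000, pinA and RBBI3.3 stand within a stretch of 5 neighbouring genes, and all 4 were higher in T6N. These neighbours may share probe sequence, so their values need not be independent.

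Of 3 named class III peroxidases 1 rose, where 1.42% of all 2459 named genes were higher, and the list median was -0.07. The gene named peroxidase (LOC4344277) rose most of all probe sets, with 1252, 865 and 453 in T6N and 29.4, 42.4 and 25.6 in T6C, a log2 fold change of 4.64 ± 0.34 (adjusted p = 2.78e-10) or 24.9-fold. The punctured pots spread widely, but every one was far above the highest T6C pot, and 2 of the 3 T6C values lie under the array medians. Of the other 2 named class III peroxidases, PRX112 had -0.07 and a second gene named peroxidase, of higher intensity, had -0.12, and neither passed. Through the study's terms, 7 of the 220 were tied to peroxidase activity, with log2 fold changes between 1.01 and 4.64. LOC4351300, the brightest of the remaining 6, read 1496, 991 and 1182 in T6N and 157, 196 and 195 in T6C (2.73, adjusted p = 1.63e-09). LOC4337232 read 149, 70.4 and 61.2 in T6N, against 9.51, 14.9 and 14.5 in T6C.

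PBZ1, a probenazole-inducible protein of the pathogenesis-related class 10, read 836, 219 and 192 in T6N and 84.1, 119 and 64.8 in T6C, with a log2 fold change of 1.92 ± 0.44 (adjusted p = 0.0136). The call did not hold without T6N replicate 1, T6C replicate 1 or T6C replicate 3, or in a fit of only these 6 arrays, with an adjusted p of up to 0.178. LOC4332568, a gene under the term for response to biotic stimulus, rose more evenly, with 2414, 1461 and 1674 in T6N and 155, 212 and 169.5 in T6C (3.35 ± 0.17, adjusted p = 1.04e-13). WGP1, a protein with a BURP domain, read 3811, 2673 and 742 in T6N and 445, 408 and 388 in T6C, a log2 fold change of 2.25 ± 0.38 (adjusted p = 0.000463). In a fit of only these 6 arrays WGP1 no longer passed, at an adjusted p of 0.0783. Under the term for ribonuclease T2, 3 probe sets rose by 1.41 to 3.07 on the log2 scale. The steepest, LOC4347709, read 1867, 1739 and 1485 in T6N, against 214, 135 and 280.4 in T6C, and its direct neighbour LOC4347708 read 649, 584 and 913 in T6N and 313, 209 and 283 in T6C. Lipid transport, a term given to genes of lipid transfer proteins, covered 9 higher probe sets and 1 lower one, with LOC4350386 the steepest of those tied to a gene at 2.23. Of the 5 named genes in the list of lipid transfer proteins none passed the fold threshold, and LTP reached 0.82 with an adjusted p of 1.59e-06.

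The JAZ repressors of jasmonate signalling all had fold changes above 1, 4 of them past the threshold. The list of JAZ repressors held 13 genes, of which 4 rose and 9 did not pass the test, where 1.42% of all 2459 named genes were higher. All 13 log2 fold changes were above 0, as were 1529 of those of the 2459 named genes and 10141 of those of all 17905 genes. The list median was 0.51, against 0.049 for the named genes and 0.026 for all genes. JAZ11 read 189, 194 and 167 in T6N, against 43.2, 40.3 and 47.0 in T6C, a log2 fold change of 2.08 ± 0.29 (adjusted p = 4.02e-05). JAZ12 read 512, 364 and 286 in T6N and 95.3, 86.6 and 114 in T6C, a rise of 1.94 ± 0.24 (adjusted p = 3.93e-06). In both genes the groups were clearly apart, and the punctured pots of JAZ11 were the more even. JAZ10 read 564, 458 and 636 in T6N and 193, 285 and 227 in T6C (1.24, adjusted p = 1.06e-05), and a second probe set of it reached 0.70 with an adjusted p of 0.000378. JAZ13 read 50.6, 23.9 and 21.3 in T6N, against 11.0, 10.8 and 17.7 in T6C, and its rise of 1.20 (adjusted p = 0.0175) rested on values near or under the array medians and was lost without T6N replicate 1, T6C replicate 1 or T6C replicate 2 and in a fit of only these 6 arrays. The 4 most intense of the other members stayed below the fold threshold, with log2 fold changes of 0.41 for JAZ7, 0.27 for JAZ1, 0.26 for JAZ4 and 0.44 for JAZ6. In the same RefSeq annotation JAZ10 and JAZ11 are direct neighbours, and JAZ12 stands 3 places from JAZ13.

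Of the 19 genes of jasmonate synthesis, 1 rose and 18 did not pass the test, with a list median of 0.17. Of all 2459 named genes, 1.42% were higher. The gene of jasmonate synthesis that rose was OPR5, a member of the 12-oxophytodienoate reductase family, with 262, 102 and 101 in T6N and 79.7, 54.8 and 60.7 in T6C, a log2 fold change of 1.12 ± 0.25 (adjusted p = 0.0127). Its T6N replicate 1 stood well above the other pots, and without that pot, or without T6C replicate 2 or 3, or in a fit of only these 6 arrays, the call was lost. A second probe set of OPR5 had 0.35 (adjusted p = 0.644). Of the most intense members, allene oxide cyclase (aoc) had a log2 fold change of 0.43 and an adjusted p of 0.00446, below the fold threshold. OPR7, the reductase known for jasmonate synthesis in rice, had 0.35 (adjusted p = 0.0511), the lipoxygenase LOX5 0.28 (adjusted p = 0.279), and the conjugating enzyme JAR1 0.17 (adjusted p = 0.477).

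Chitinases, which cleave chitin of fungal walls and insect cuticle, had the highest median of the lists with at least 5 genes, 0.70. Of their 13 genes, 4 rose, 9 did not pass the test and none fell, where 1.42% of all 2459 named genes were higher and 0.122% lower. Cht2 read 1688, 1213 and 933 in T6N and 408, 391 and 249 in T6C, a log2 fold change of 1.86 ± 0.25 (adjusted p = 2.16e-05). A second probe set of Cht2 rose by 1.58, whereas another, with means of 6.27 in T6N and 5.43 in T6C, had 0.21. CH16 read 295, 332 and 247 in T6N, against 89.1, 57.4 and 79.7 in T6C (1.96, adjusted p = 0.000135). Rcb4 read 819.6, 497 and 422 in T6N and 234, 213 and 219 in T6C (1.33, adjusted p = 5.55e-05). All 3 genes had their punctured pots well clear of the unpunctured ones. Cht6 read 108, 52.7 and 41.3 in T6N and 26.1, 28.5 and 22.9 in T6C, and its log2 fold change of 1.26 (adjusted p = 0.000531) was 0.86, below the fold threshold, without T6N replicate 1, and in a fit of only these 6 arrays its adjusted p was 0.0961. Among the more intense members that did not pass, chia4a had 0.70 (adjusted p = 0.204), Cht10 0.74, CH6 0.65 and Cht11 -0.022. The study's chitinase term covered 7 higher probe sets, among them the adjacent genes LOC4350821 and LOC4350822, with log2 fold changes of 1.37 and 2.01.

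**Figure D2:**
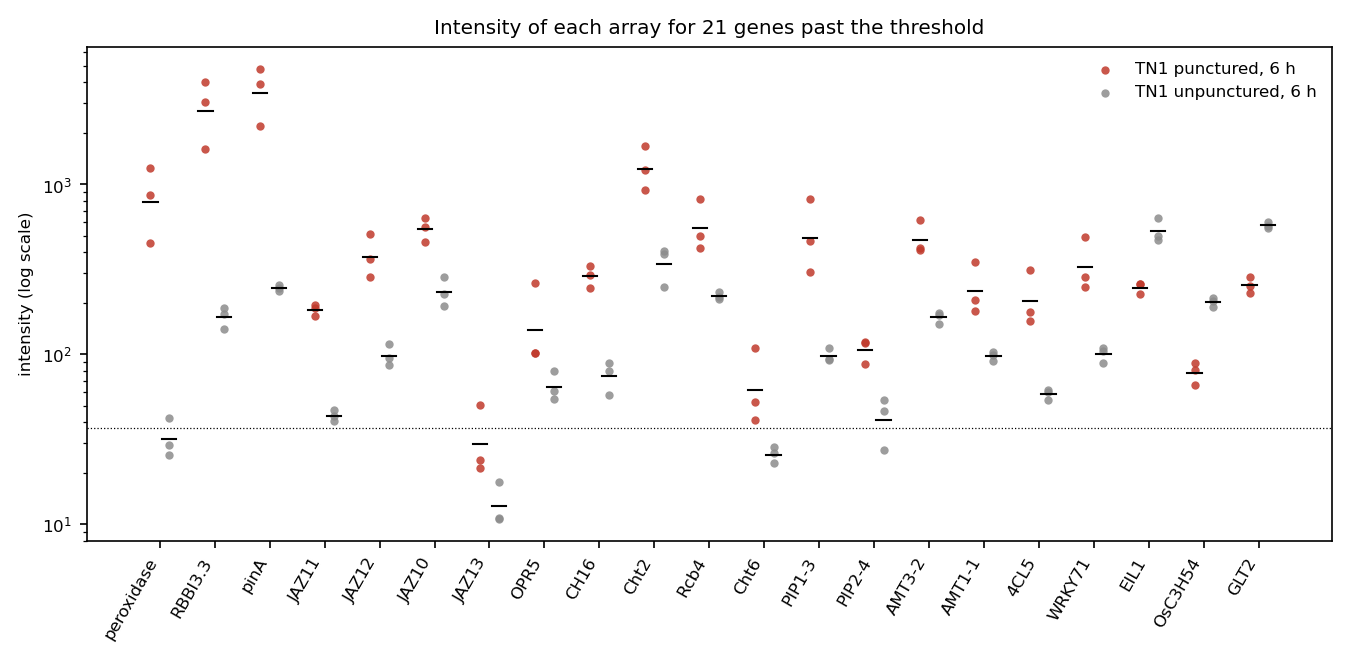
Intensity on a log scale (vertical axis) of each TN1 array at 6 h for genes past the threshold (horizontal axis), with punctured pots in red on the left, unpunctured pots in grey on the right, and the geometric mean of each as a black bar. No pair of groups overlaps, and the dotted line at 36.8 is the highest T6N array median, under which all unpunctured pots of Cht6 and JAZ13 lie.

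Some members of the transporter families below rose, where 1.42% of all 2459 named genes and 0.787% of all 17905 genes were higher. Aquaporins, the water channels of the plasma membrane (PIP), the tonoplast (TIP) and other membranes, numbered 25, of which 2 rose by the most intense probe set of each gene, and the list median was 0.0064. PIP1-3 read 819, 464 and 303 in T6N and 92.5, 109.5 and 94.0 in T6C, a log2 fold change of 2.31 ± 0.28 (adjusted p = 4.43e-06). PIP2-4 read 118, 117 and 88.2 in T6N, against 27.5, 54.0 and 46.3 in T6C (1.38, adjusted p = 0.000736). The nearby gene PIP2-1 gave no clear answer, because the probe set Os.11330.1.S2_at rose by 1.67 with 370.0, 242 and 229 in T6N and 87.4, 80.8 and 89.5 in T6C, while 2 far more intense probe sets of the gene had -0.093 and -0.048. The most intense aquaporins did not pass the test, with -0.016 for TIP1-1, -0.089 for TIP2-2, -0.048 for PIP1-2 and -0.02 for PIP1-1.

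Of 12 SWEET genes, which encode sugar exporters and uniporters, 3 rose, and the median of the 12 was 0.083. SWEET2B read 181, 132 and 179.8 in T6N and 69.9, 57.7 and 66.5 in T6C, a log2 fold change of 1.34 (adjusted p = 3.82e-06). A second probe set of SWEET2B rose by 1.10, but without T6N replicate 1 or T6C replicate 3 it had 0.95, below the fold threshold. SWEET11, which bacterial blight is known to induce in rice leaves, read 1712, 1384 and 1249.6 in T6N, against 805, 519.6 and 623 in T6C (1.17, adjusted p = 0.000210). SWEET15 read 130.2, 88.6 and 104 in T6N and 35.4, 51.8 and 55.3 in T6C (1.19, adjusted p = 0.0377), and its call was lost on leaving out any of the 6 arrays. Sucrose synthases of the same list, RSs2 and RSS1, had -0.089 and -0.052. Sugar metabolism and transport as a whole held 45 genes, 3 higher, with a median of 0.017.

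Of 8 AMT ammonium transporters 2 rose and none fell. AMT3-2 read 615, 421 and 409 in T6N and 152, 171 and 175 in T6C, a log2 fold change of 1.51 ± 0.20 (adjusted p = 1.87e-05). AMT1-1 read 348, 209 and 179.8 in T6N, against 104, 91.8 and 99.0 in T6C (1.26, adjusted p = 7.36e-06), and without T6N replicate 1 it had 0.98, below the fold threshold. A second, dim probe set of AMT1-1 had 0.047. The 6 others included AMT2-1 at -0.02 and AMT3-1 at 0.023. The nitrate reductase gene NIA1, which takes the first step of nitrate assimilation, rose, with 505, 421 and 346 in T6N and 132, 131 and 109 in T6C, by 1.76 ± 0.31 on the log2 scale (adjusted p = 0.000844), and a second probe set, with means of 21.0 in T6N and 20.9 in T6C, had 0.003. GLT2, a glutamate synthase, which acts where ammonium enters amino acids, fell, with 285, 254 and 231 in T6N and 603, 570.0 and 552 in T6C (-1.17 ± 0.28, adjusted p = 0.0211). Its pots were tightly grouped on both sides, yet leaving out any of the 6 arrays brought the adjusted p above the threshold, to 0.0985 at most. PT8, a phosphate transporter, read 178, 97.3 and 75.4 in T6N and 48.9, 52.5 and 42.2 in T6C (1.20, adjusted p = 0.00196), a second probe set reached 0.99, and another, with means of 5.80 in T6N and 7.25 in T6C, had -0.31.

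Single members of the lists of secondary metabolism rose, where 1.42% of all named genes were higher, and the list medians were near 0. Of 19 phenylpropanoid genes, 1 rose, 4CL5, a 4-coumarate:CoA ligase that activates precursors of lignin, with 314, 158 and 177 in T6N and 60.4, 61.5 and 54.2 in T6C (1.82 ± 0.20, adjusted p = 7.62e-07). The list median was 0.041, and the most intense member, PAL, had -0.028. Of 11 terpenoid genes, DXPS, an entry enzyme of the plastid isoprenoid pathway, rose, with 121, 99.0 and 127 in T6N and 45.5, 54.7 and 65.2 in T6C (1.08, adjusted p = 0.00122) and 0.94 without T6C replicate 1, while CLA1 of the same enzyme family had -0.032. Linalool synthase (LIS) had 0.67 with an adjusted p of 0.245. CYP701A8, a kaurene oxidase-like enzyme of the phytoalexin pathway, read 67.1, 45.4 and 31.3 in T6N and 20.3, 16.3 and 15.7 in T6C (1.40, adjusted p = 0.00265), the only gene past the test of 29 cytochromes P450. CCD8A, a carotenoid cleavage dioxygenase of the strigolactone family, read 129.7, 93.8 and 103 in T6N and 33.3, 42.4 and 62.2 in T6C (1.28, adjusted p = 4.85e-05).

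Of 25 expansins, proteins that loosen cell walls, 2 rose, where 1.42% of all named genes were higher. EXPA1 read 72.9, 60.8 and 106 in T6N and 33.2, 29.8 and 32.6 in T6C (1.29, adjusted p = 0.000438), and EXPB6 read 3355, 2213 and 2468 in T6N and 1297, 1195 and 1433 in T6C (1.01, adjusted p = 0.00130), just past the fold threshold and below it without T6N replicate 1 or T6C replicate 2. The wall list of 54 genes that holds them had a median of 0.079, and the cellulose synthases CESA3, CESA1 and CESA8 in it had 0.068, 0.09 and 0.12. BC1L9, a COBRA-like protein, rose in both of its probe sets, by 1.13 and 1.11. BGLU30, a beta-glucosidase, read 501, 722 and 518 in T6N, against 219, 159 and 187 in T6C (1.62, adjusted p = 0.000315), its second probe set rose by 1.57, and it was the only gene of 27 beta-glucosidases to pass by its most intense probe set. BGLU12 rose by 1.08 in a dim probe set and reached 0.87 in its bright one. ADPase, an apyrase, read 210.3, 254 and 258 in T6N and 75.3, 83.8 and 80.3 in T6C (1.59, adjusted p = 1.85e-07).

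Single regulatory genes outside the JAZ family rose, where 1.42% of all named genes were higher. WRKY71, a transcription factor of defence, was the only one of 6 named WRKY genes to rise, with 489, 286 and 249.5 in T6N and 89.4, 109 and 105 in T6C (1.70 ± 0.28, adjusted p = 0.000358), and its second probe set had 0.57 (adjusted p = 0.214). Hox22, a homeodomain-leucine zipper factor, read 149, 151 and 158 in T6N and 67.5, 54.8 and 65.3 in T6C (1.29, adjusted p = 8.84e-05). IAA20, an Aux/IAA repressor, read 33.7, 18.3 and 23.6 in T6N and 12.0, 12.1 and 11.5 in T6C (1.04, adjusted p = 0.000260). All these values lie under the array medians and may be background. With array weights or without T6N replicate 1 its log2 fold change was 0.81 to 0.97, below the fold threshold. It was the only gene to pass of 59 of auxin signalling, close to the share of 1.42% over named genes. RAA1, first described in roots, read 63.7, 41.1 and 46.4 in T6N and 14.4, 17.5 and 22.1 in T6C (1.48, adjusted p = 0.000705). NAC071 stayed just below the fold threshold at 0.99 (adjusted p = 0.00166). The gene under the symbol ARD1 rose by 1.33 in 1 probe set, with 252, 114 and 132 in T6N and 61.1, 50.5 and 77.8 in T6C. Its more intense probe set, with means of 175 in T6N and 133 in T6C, had 0.40 and did not pass (adjusted p = 0.246). RefSeq joins names of a dioxygenase and of heat shock factors at that locus, so which transcript was measured is uncertain.

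Several lists had no member past the threshold. These were calcium signalling with 79 genes, heat shock proteins and factors with 42, cyclins, cyclin-dependent kinases and histones with 41, cytosolic ribosomal proteins with 24, MAP kinases with 17, abscisic acid and dehydration with 14, and the ERF, bHLH, MYB and NAC factors with 12, 12, 11 and 8. Among them the abscisic acid list had the highest median, 0.37, with 12 of 14 fold changes above 0. Its largest, the dehydrin RAB21 singled out after its values were seen, was 1.20 with an adjusted p of 0.0999, the most intense member, salT, had 0.78 (adjusted p = 0.0904), and Dhn1 had 0.46. Genes often used as references had log2 fold changes of -0.16 to 0.22 over 15 members. For comparison, 0.787% of all 17905 genes and 1.42% of the 2459 named ones were higher, and 0.0503% and 0.122% were lower.

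**Figure D3:**
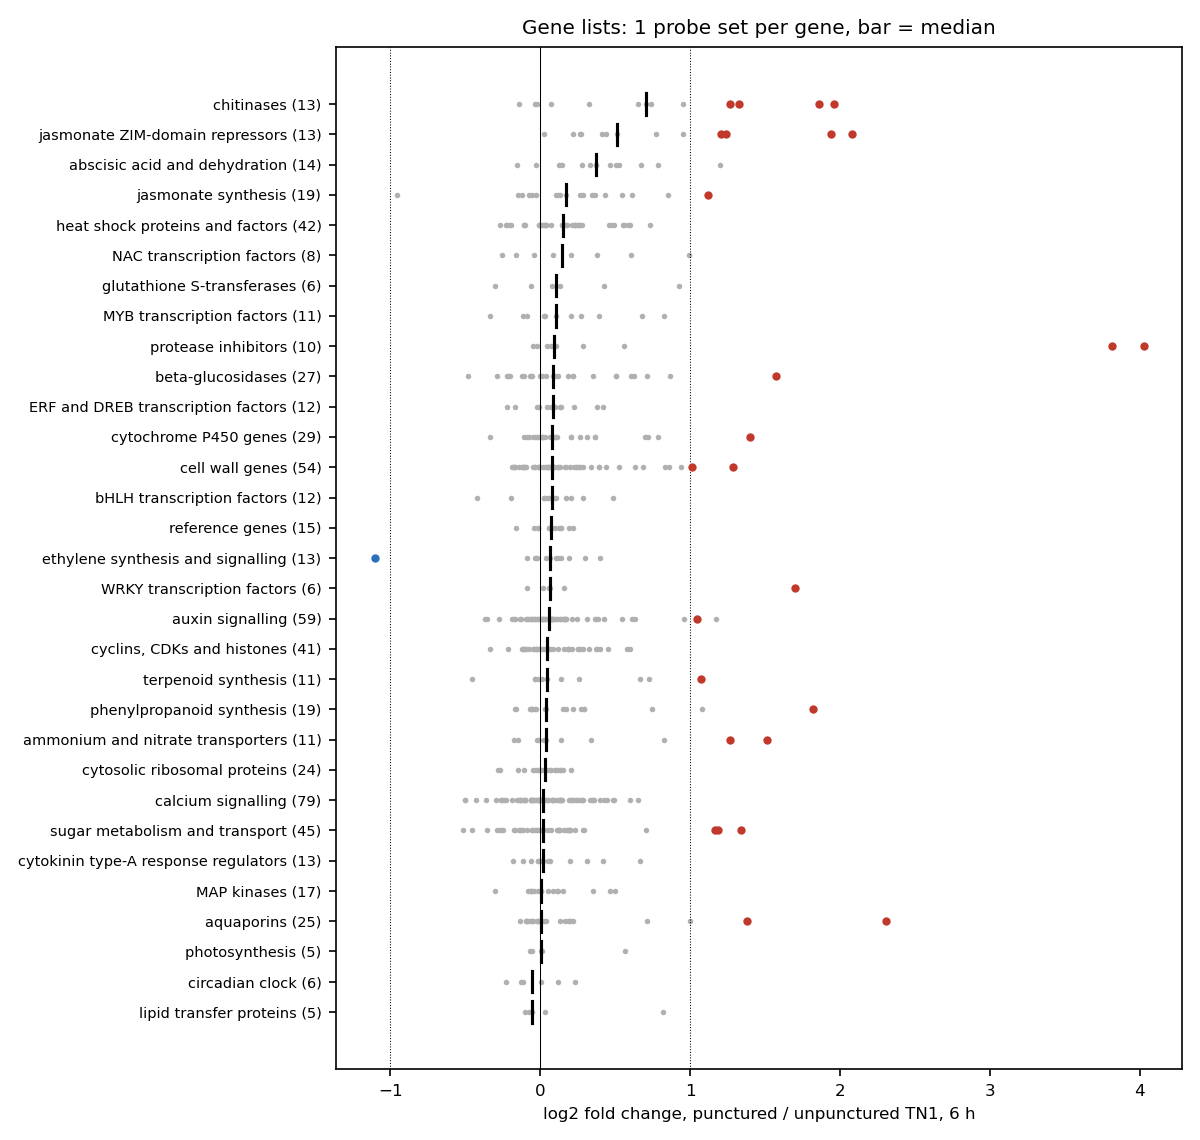
Log2 fold change of punctured over unpunctured TN1 at 6 h (horizontal axis) for the genes of each list with at least 5 members (vertical axis, number of genes in brackets), with 1 probe set per gene. Genes past the threshold are red where higher and blue where lower, and the black bars are the list medians, of which those of chitinases (0.70) and jasmonate ZIM-domain repressors (0.51) are the highest.

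Of the 19 probe sets that fell, 3 had a named gene. EIL1, a transcription factor of ethylene signalling, read 259, 258 and 226 in T6N and 499, 637 and 473 in T6C, a log2 fold change of -1.11 ± 0.20 (adjusted p = 0.00119). A second gene carrying the same symbol, far more intense, had 0.11 (adjusted p = 0.793). EIL1 was the only gene of the 13 of ethylene synthesis and signalling to pass, where 0.122% of all named genes were lower. Without T6C replicate 2 its log2 fold change was -0.97. OsC3H54, a CCCH zinc finger protein, read 81.3, 88.9 and 65.9 in T6N, against 215, 189 and 205 in T6C (-1.38 ± 0.21, adjusted p = 0.000137). Together with GLT2 above these are the named falls. The steepest fall, OsAffx.3970.1.S1_at, read 125, 115 and 123 in T6N and 522, 498 and 395 in T6C (-1.95, adjusted p = 0.000241). LOC4352346 read 300.4, 474 and 576 in T6N and 1577, 1629.8 and 1495 in T6C (-1.85, adjusted p = 0.000531), the brightest of the 5 steepest. Os.27497.1.S1_at read 18.1 on average in T6N, against 62.6 in T6C, and LOC4348206 read 43.7, 37.9 and 58.9 in T6N and 168, 159.6 and 111 in T6C. The call of LOC4348206 was lost without T6N replicate 1 or 2 or T6C replicate 1 or 2, with an adjusted p of up to 0.0932. LOC4324397, the fifth in order of steepness, averaged 24.3 in T6N and 78.3 in T6C. Several of these genes also had low values at the later time of sampling without any wound. Over the 19, the T24C means lay by a median of -1.73 on the log2 scale relative to the T6C means, and in 11 of 19 the T24C mean was below the T6N mean. Over all probe sets that median was 0.028, and over the 220 risers it was 0.41. GLT2, for example, averaged 18.7 in T24C, and the part of the time of sampling in the falls was not tested.

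The same puncturing of RH gave 101 differential probe sets at 6 h (0.177% of those tested), 89 higher (0.156%) and 12 lower (0.021%), on arrays not shared with TN1. Without R6N replicate 1 there were 67 differential probe sets. Of the 220 probe sets higher in T6N, 71 were also higher in R6N, which is 32.3% of the TN1 list and 79.8% of the RH list, and 18 rises of RH were not called in TN1. Of the 19 lower, 5 were also lower in RH. The 220 had a median log2 fold change of 0.78 in RH, and 206 were above 0. Across the 239 probe sets the fold changes of both varieties correlated at r = 0.69, and across all 57194 at r = 0.51, as a description over probe sets that share arrays within each variety. Since the 239 were chosen in TN1, larger values in TN1 than in RH are favoured by that choice. Several of the steepest rises were called in RH too, such as peroxidase with 621, 557 and 480.3 in R6N and 25.7, 41.5 and 30.8 in R6C (4.10), and PIP1-3 with 2.09 on the log2 scale. NIA1 had 1.76 in TN1 and 1.92 in RH, and LOC4340892 had 4.28 in TN1 and 4.94 in RH.

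The direct test of the difference in response, TN1 minus RH at 6 h, passed for 8 probe sets (0.014% of those tested), 7 responding more strongly in TN1 (0.0122%) and 1 in RH (0.00175%). The count was 3 without T6N replicate 1, R6C replicate 2 or R6C replicate 3, 4 without T6C replicate 3, 5 without T6C replicate 1 or 2, and 13 without R6N replicate 3. pinA was the only one with a named gene. It read 127, 110.2 and 139 in R6N and 95.8, 109 and 94.4 in R6C, so that its log2 fold change was 3.81 in TN1 and 0.32 in RH, a difference of 3.49 ± 0.42 (95% interval 2.62 to 4.36, adjusted p = 6.45e-05). This difference passed on leaving out each of the 12 arrays in turn, with an adjusted p of at most 0.000641. Its unpunctured level averaged 246 in T6C and 99.9 in R6C. RBBI3.3, its direct neighbour, had 2.39 in RH, and the difference of 1.63 did not pass (adjusted p = 0.950).

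Os.9169.1.S1_x_at, placed by the study under wounding and protease inhibition, read 127, 101 and 93.6 in T6N and 27.1, 21.1 and 22.7 in T6C, whereas in RH it read 13.9, 21.0 and 20.6 in R6N and 15.1, 14.0 and 14.7 in R6C. The difference was 1.85 (adjusted p = 1.22e-05), and OsAffx.17202.1.S1_at had 1.74 (adjusted p = 1.22e-05). Both passed on leaving out each of the 12 arrays. OsAffx.17202.1.S1_at read 10.9, 11.8 and 10.9 in R6N and 12.7, 13.3 and 10.4 in R6C. For both probe sets all RH and T6C values lie under the array medians and may be background. A lack of response in RH is therefore not shown by them. Os.48206.1.S1_at read 9.87, 9.68 and 9.20 in R6N and 8.28, 10.1 and 11.3 in R6C, all under the array medians, and differed by 3.36 (adjusted p = 0.0122). LOC4332568 rose in both varieties, with 1939, 1696 and 1492 in R6N and 388, 525 and 499 in R6C, by 3.35 in TN1 and 1.86 in RH, a difference of 1.49 (adjusted p = 0.0122). The punctured levels of both varieties overlapped, and the unpunctured level was the lower in TN1. LOC4336228 differed by 1.54 (adjusted p = 0.0244), with 53.2, 49.0 and 58.1 in T6C and 166, 188 and 201 in R6C, and LOC4331894 by 0.87 (adjusted p = 0.0122). In the opposite direction, OsAffx.25825.1.S1_at passed in RH and not in TN1. It read 17.4, 15.7 and 11.8 in T6N and 12.3, 11.7 and 13.7 in T6C, and 81.3, 127 and 82.9 in R6N and 14.6, 19.3 and 15.1 in R6C (difference -2.31, adjusted p = 0.0315). Apart from pinA, Os.9169.1.S1_x_at and OsAffx.17202.1.S1_at, the differences depended on single arrays, since each of the other 5 passed in only 2 to 8 of the 12 fits that left out an array. Of the 10 higher probe sets under serine protease inhibition, 5 were also higher in RH and 4 had an RH log2 fold change under 0.5, between -0.04 and 0.32. Over all 220 higher probe sets, 71 were also higher in RH and 59 had an RH log2 fold change under 0.5.

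**Figure D4:**
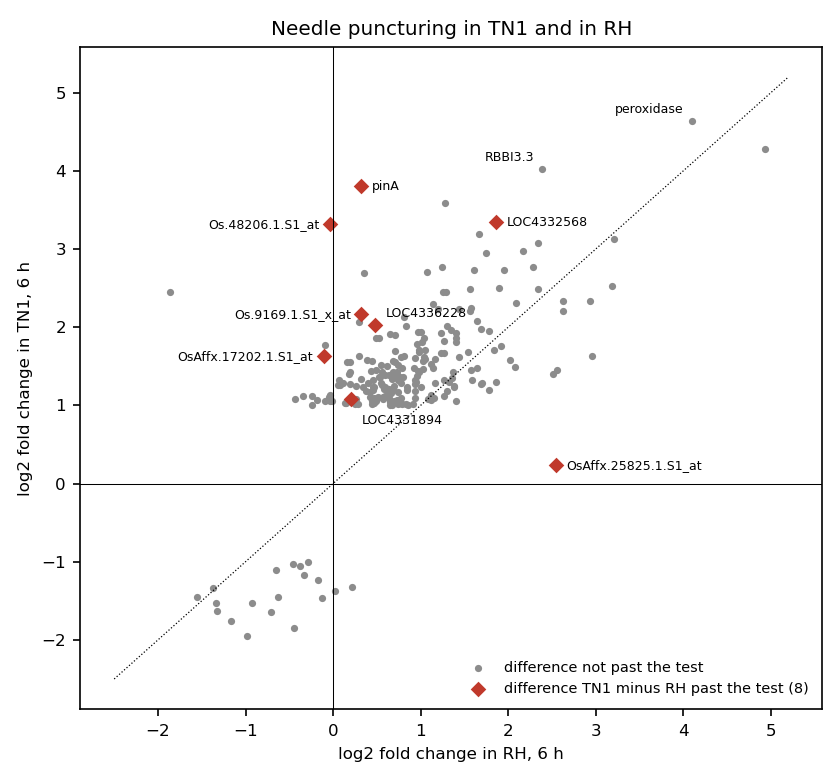
Log2 fold change after puncturing at 6 h in TN1 (vertical axis) and in RH (horizontal axis) for the 239 probe sets differential in TN1. OsAffx.25825.1.S1_at, not differential in TN1, is shown as well. Red diamonds mark the 8 probe sets past the test of the difference. Of these 8, pinA shows 3.81 in TN1 and 0.32 in RH, and OsAffx.25825.1.S1_at is the only one below the dotted line of equal response.

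By 24 h, on separate arrays, puncturing of TN1 left 31 differential probe sets (0.0542%), 29 higher (0.0507%) and 2 lower (0.0035%). This count rested on single pots, with 8 probe sets without T24C replicate 1, 14 without T24N replicate 3, 17 without T24N replicate 1 and 19 without T24C replicate 3. Of the 220 higher at 6 h, 17 were also higher at 24 h, which is 7.73% of the 6 h list and 58.6% of the 24 h list. None of the 19 lower at 6 h was also lower at 24 h, and 1 probe set was differential in opposite directions at 6 and 24 h. The 220 had a median log2 fold change of 0.32 at 24 h, and across the 239 the fold changes of both times correlated at r = 0.38, against r = 0.05 across all probe sets. Under the ribonuclease T2 term, all 3 probe sets that rose at 6 h were also higher at 24 h, with log2 fold changes of 1.84 to 2.48. LOC4347709 read 2658, 1989 and 2639.7 in T24N and 289.6, 682 and 405 in T24C. LOC4332568 had 2.62 at 24 h after 3.35 at 6 h. Of chitinases, Cht2 had 1.86 at 6 h and 1.64 at 24 h, and CH16 1.96 and 1.47.

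Other genes no longer passed at 24 h. The direct test of the difference in response, 24 h minus 6 h, passed for 300 probe sets (0.525%), 189 of them negative (0.33%) and 111 positive (0.194%). Between 123 and 187 passed on leaving out T24N replicate 2 or 3, T24C replicate 1 or 3, T6N replicate 1 or any T6C pot. The 6 h arrays enter this test as well as the choice of the 239, so their overlap is not given. Peroxidase read 129, 89.7 and 151 in T24N and 59.5, 93.7 and 109 in T24C, a log2 fold change of 0.51, and the difference of -4.13 ± 0.48 had an adjusted p of 1.19e-05. All its T24C pots stood above its T6C pots. RBBI3.3 differed by -3.16 (adjusted p = 0.00227), pinA by -2.95 (adjusted p = 0.000573), WGP1 by -2.47 (adjusted p = 0.0237) and NIA1 by -1.86 (adjusted p = 0.0421). WGP1 read 1142, 801 and 1094 in T24N and 1161, 1295 and 1061 in T24C, so both groups stood above its T6C pots. pinA still read 483, 360.4 and 601 in T24N, against 231, 315 and 238 in T24C, without overlap, but the rise of 0.87 did not pass (adjusted p = 0.506). The largest positive difference of a named gene was that of OsC3H54, 1.89 (adjusted p = 0.00165), which was lower in T6N than in T6C but read 207, 241 and 325 in T24N and 138, 223 and 182 in T24C.

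**Figure D5:**
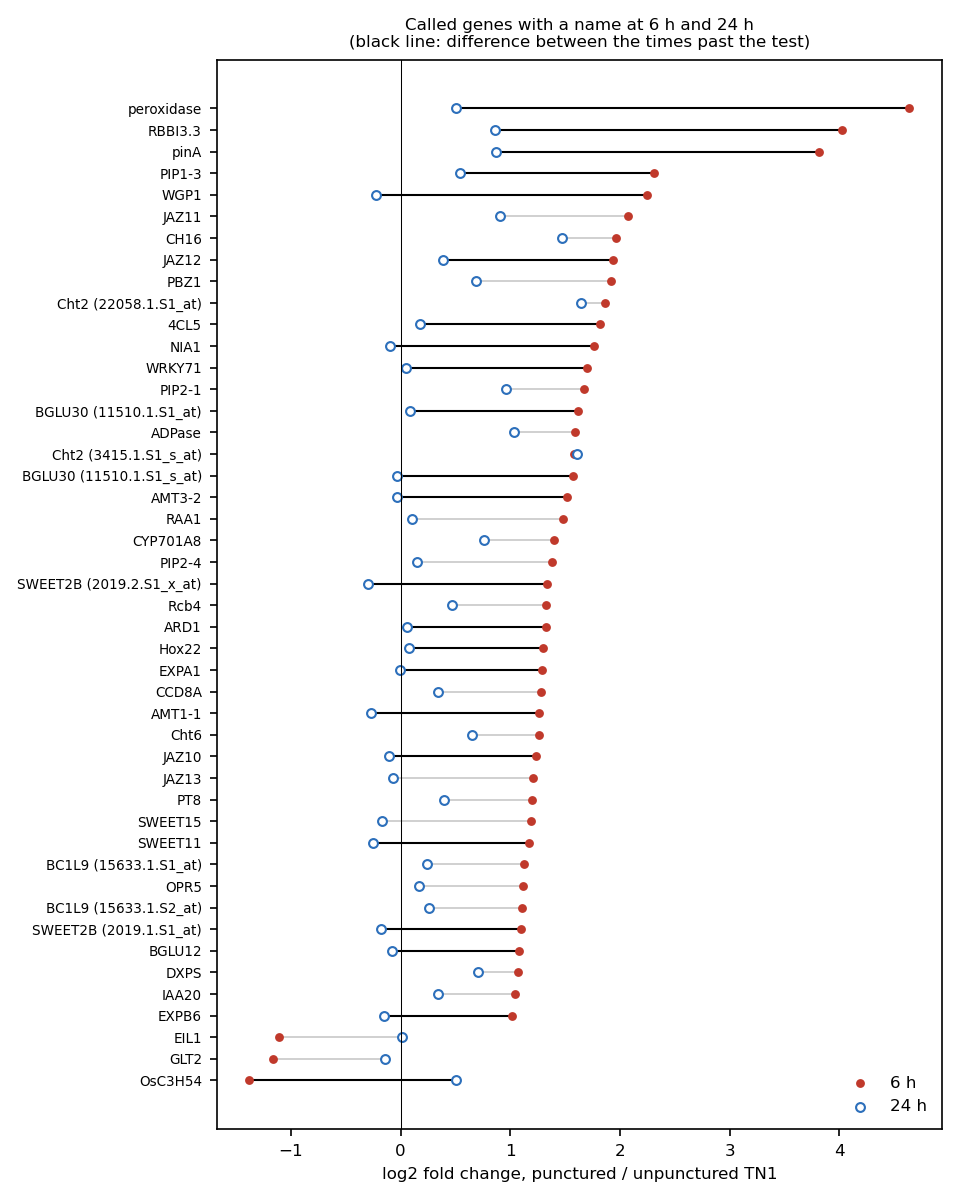
Log2 fold change of punctured over unpunctured TN1 (horizontal axis) at 6 h (red) and 24 h (open blue) for each probe set with a named gene that was differential at 6 h (vertical axis). Black lines mark a difference between the times past the test, and the longest belongs to peroxidase, at 4.64 and 0.51, while both Cht2 probe sets hardly move.

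Against TN1 seedlings under BPH infestation for the same 6 h, the punctured seedlings differed in 111 probe sets (0.194%), 25 higher (0.0437%) and 86 lower (0.15%) in the infested plants. Without T6N replicate 1 there were 71 such probe sets. The T6N arrays enter this comparison as well as the choice of the 239, which favours lower values in T6P for genes that rose after puncturing. Peroxidase read 40.0, 42.6 and 28.9 in T6P, against 1252, 865 and 453 in T6N, a log2 fold change of -4.43 ± 0.34 (adjusted p = 5.49e-10), so that no infested pot came near a punctured one. RBBI3.3 read 622, 455 and 713 in T6P and had a fold change of -2.21 (adjusted p = 0.00102), and pinA read 1234, 727 and 1332 with -1.70 (adjusted p = 0.00200). Both infested levels were still above the T6C pots given earlier. WGP1 (-1.84), 4CL5 (-1.25), CCD8A (-1.26), Cht6 (-1.10), Rcb4 (-1.10), Cht2 (-1.03) and BGLU12 (-1.02) were lower in T6P as well. LOC4332568 read 196, 187 and 215 in T6P, with -3.18 (adjusted p = 4.30e-13). Named genes higher in T6P than in T6N included Cht11 (2.93), LOX8 (1.89), MADS25 (1.04) and ILL8 (1.02). Of these, Cht11 and the lipoxygenase LOX8 had log2 fold changes of -0.022 and -0.96 after puncturing, and neither passed the test.

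Some genes that rose after puncturing stood next to each other. Of the called genes, 158 could be placed in the RefSeq annotation of ASM3414082v1, and 30 of them stood in 14 runs in which the next called gene was at most 5 genes away. All 14 runs held rises only, and rises made up 220 of the 239 differential probe sets. How often genes placed without regard to position would stand this close was not computed. Besides the inhibitor and JAZ genes they included PIP2-4 with PIP2-1, PBZ1 with LOC4352487, and Rcb4 with LOC4348633. PIP2-1 is counted here by Os.11330.1.S2_at alone, as its far more intense probe sets had -0.093 and -0.048. Neighbouring copies of a gene can share probes, and 27 of the 239 probe sets carry the suffix for several transcripts of similar sequence, 28 that for cross-hybridising probes and 7 that for transcripts of a single gene, so such rises may be counted more than once.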

How the data were processed

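Total RNA from seedling shoots was hybridised, 1 array per pot, to the Affymetrix Rice Genome Array. The authors deposited 1 series table of normalized intensity values on a linear scale, and the processing notes name RMA and affy without versions. Log2 of these intensities was tested with limma 3.58.1 in R 4.3.3, with 1 mean per group over all 36 arrays and 12 groups (24 residual degrees of freedom), contrasts between groups, eBayes and Benjamini-Hochberg adjustment over all 57194 probe sets. No filter on low values was used. The methods of the study name a one-way ANOVA without its design, and a form over the groups of each comparison was run as an alternative. Responses were compared by interaction contrasts with no minimum difference. The precision is limited by 3 arrays per group.

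GEO's platform annotation ties 22436 probe sets to 1 gene, all matched by gene ID to RefSeq's ASM3414082v1, and 95 to several, which were not named. For gene lists, each gene was represented by its most intense probe set. Named genes were those past the threshold with a symbol or product name and no overlap between groups (25 steepest rises, 10 steepest falls), every list member past the threshold with up to 4 more of the highest intensity, genes the study names if differential, named genes past the test between varieties, and the 5 largest differences of either sign between times. Other genes and probe sets given by locus or ID were chosen after their values were seen. The comparison, the genes and the lists were chosen with earlier results of these data known. Scripts were tested on simulated data. Alternatives changed the normalization, the arrays in the fit, the variance model, the filter, the thresholds, the replicate block and the probe set of a gene, and left out each array in turn. Scan dates and detection calls were not used here.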

Additional observations from a re-analysis of the deposited data

Results flagged for a closer look

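The test of the difference between varieties, TN1 minus RH at 6 h on the log2 scale, was passed by 8 probe sets. The difference was 3.49 for pinA, 3.36 for Os.48206.1.S1_at, 1.85 for Os.9169.1.S1_x_at, 1.74 for OsAffx.17202.1.S1_at, 1.54 for LOC4336228, 1.49 for LOC4332568 and 0.87 for LOC4331894, all larger in TN1, and -2.31 for OsAffx.25825.1.S1_at, larger in RH. On leaving out each of the 12 arrays, LOC4331894 passed in 8 fits, Os.48206.1.S1_at and LOC4332568 in 7, LOC4336228 in 4 and OsAffx.25825.1.S1_at in 2. The causes were not tested.

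The test of the difference between times in TN1, 24 h minus 6 h, was passed by 46 probe sets with a named gene, and 27 of them are given here, being differential at 6 h or among the largest positive differences. The largest negative differences were peroxidase (-4.13), RBBI3.3 (-3.16), pinA (-2.95) and WGP1 (-2.47). Transporters and nitrogen genes among them were NIA1 (-1.86), PIP1-3 (-1.76), AMT3-2 (-1.55), AMT1-1 (-1.54), SWEET2B (-1.63 and -1.28 in its probe sets) and SWEET11 (-1.42). Regulators were WRKY71 (-1.65), JAZ12 (-1.55), JAZ10 (-1.34) and Hox22 (-1.22). The rest were 4CL5 (-1.64), BGLU30 (-1.60 and -1.53), EXPA1 (-1.30), ARD1 (-1.27), EXPB6 (-1.165) and BGLU12 (-1.15). Positive differences were those of OsC3H54 (1.89), the catalase gene CAT-A (0.99), the diterpene synthase gene KSL7 (0.75), the metal transporter gene NRAMP4 (0.70) and AO-4 (0.66). The 6 h arrays enter these differences as well as the 6 h calls, and the causes were not tested.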

How the results depend on the processing

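Of 127 alternative counts, 84 stayed within 1.5 times the main count. With no minimum fold change, T6N/T6C had 633 higher and 360 lower probe sets, R6N/R6C 204, T24N/T24C 70 and T6P/T6N 368 differential ones, and a minimum difference of 1 left 137 between times. A one-way ANOVA over the groups of each comparison at an unadjusted p under 0.05 with the same fold threshold gave 227 higher, 25 lower, 120 in R6N/R6C, 49 in T24N/T24C and 114 in T6P/T6N, but after Benjamini-Hochberg adjustment 2 higher and 0 in each of the other counts, against 220, 19, 101, 31 and 111 by limma. A fit of only the groups compared gave 18 in T24N/T24C and 72 in T6P/T6N. At an adjusted p under 0.01, 17 passed in T24N/T24C, 3 between varieties and 86 between times. Array weights gave 34 between varieties and 1182 between times, trended and robust variances 451 between times, and a mean log2 intensity of at least 6 gave 4 between varieties and 556 between times. Leaving out 1 array gave 150 to 247 higher, 16 to 23 lower, 67 to 129 in R6N/R6C, 8 to 29 in T24N/T24C, 71 to 153 in T6P/T6N, 3 to 13 between varieties and 123 to 232 between times. The lowest of these counts came without T6N replicate 1 for the higher probe sets and T6P/T6N, without R6N replicate 1 for R6N/R6C, and without T24C replicate 1 for T24N/T24C. Of 658 alternative values of single probe sets, 597 stayed on the same side of the threshold, 57 no longer passed and 4 turned sign, which were other probe sets of PIP2-1 (-0.093 and -0.048), PT8 (-0.31) and LOC4340892 (-0.12). Of 53 probe sets followed, 36 passed in all settings that kept the probe set, and alternatives that read another probe set of the gene are not in this count. Of the list medians, only that of the root markers moved by more than the standard deviation of the log2 fold changes of its genes. It was 0.17 after quantile normalization against 0.19, and its 2 genes had nearly equal values of 0.189 and 0.196. The spread between replicates was not used for this.

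The replicate numbers did not pair the arrays, since deviations of same-numbered T6N and T6C arrays correlated at -0.029, -0.014 and 0.09. With the replicate number as a block, 223 probe sets were higher and 19 lower, with 101 in R6N/R6C, 28 in T24N/T24C, 112 in T6P/T6N, 7 between varieties and 282 between times. Without detection calls, it is not known whether values under the array medians are background, and folds against them may be bounds. Having 3 pots per group limits what the differences between varieties can show.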
